A study of Mus musculus with 16 samples.

Results

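The genes described here are 10 members of the AP-1 transcription factor group, Fos, Fosb, Fosl1, Fosl2, Jun, Junb, Jund, Atf3, Batf and Maff, chosen by symbol from the 57010 genes of the count table. RNA came from microglia of the olfactory bulb of mice aged 2 months, in 16 libraries. WT mice were C57BL/6J animals. APP-NL-G-F mice, labelled KI, carry an App gene that holds the Swedish (NL) change, the Arctic (G) change and the Iberian (F) change. These changes were knocked into the mouse's own locus and are thus present wherever App is expressed. Each genotype had 4 female and 4 male libraries, named by group and replicate number. WT animals were purchased, and the sources used here do not say that they were littermates of the knock-in animals. No drug was given. The cells were taken from papain-digested bulbs of perfused mice with beads against CD11b, a surface protein that other myeloid cells also carry. Libraries held between 9052932 and 18117286 counts. The labels name a replicate number for each library but do not say how many animals each holds, so p-values measure the spread between libraries.

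AP-1 is a dimer of basic leucine zipper proteins. Jun proteins pair with each other or with Fos proteins, and ATF, BATF and small MAF proteins join the same network as partners or repressors. Most of these genes are immediate early genes: transcription starts within minutes of a stimulus from factors already present in the cell, such as SRF with its ELK partners at CArG boxes and CREB at cyclic AMP response elements, and the transcripts are short-lived. In microglia and other macrophages AP-1 acts with the lineage factor PU.1 at enhancers, and it is raised by inflammatory signals, by injury and by the dissociation of tissue.

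The letters that these factors read were searched in the 500 bases before the start of each gene's canonical transcript, on both strands, and the stretches below are shown because they hold them in 5 of the members that were called below. The bases come from GRCm39, are written 5′ to 3′ on the gene's strand, and carry the matches in capitals. TGANTCA and TGANNTCA are loose forms of the sites that AP-1 and ATF dimers bind, with any base at N, TGACGT the core of the cyclic AMP response element (it lies inside a longer site TGACGTCA), and the CArG box is named as such. Fos is shown at chr12:85520330-85520389 (plus strand, CArG box) and chr12:85520568-85520627 (TGACGT), Fosb at chr7:19044217-19044306 (minus strand, TGACGT and CArG box), Jun at chr4:94940475-94940534 (minus strand, TGANNTCA), Jund at chr8:71151374-71151403 (plus strand) and Maff at chr15:79231660-79231719 (plus strand), the last 2 with the full TGACGTCA.
Fos, CArG box: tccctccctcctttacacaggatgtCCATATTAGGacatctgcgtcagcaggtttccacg
Fos, response element core: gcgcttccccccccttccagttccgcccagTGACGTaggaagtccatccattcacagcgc
Fosb: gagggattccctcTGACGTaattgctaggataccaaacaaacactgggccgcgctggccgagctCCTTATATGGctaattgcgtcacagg
Jun: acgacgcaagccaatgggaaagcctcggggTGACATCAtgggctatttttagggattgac
Jund: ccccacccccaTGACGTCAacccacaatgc
Maff: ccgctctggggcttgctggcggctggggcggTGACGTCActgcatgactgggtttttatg

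The CArG box was found before 2 of the 10 genes, Fos (bases -303 to -294 from the start) and Fosb (-266 to -257), and before 2.76% of 21749 protein-coding genes. TGACGT was found before 6, Fos, Fosb, Jun, Jund, Batf and Maff, against 9.25% of all. TGANNTCA was found before Jun, Jund and Maff (19.8% of all) and TGANTCA before Fos, at -456 to -450 (12.3% of all). These matches describe letters and not bound sites.

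AP-1 transcripts were abundant in these cells. The 10 genes together took between 0.223% and 1.0% of all counts of a library. CPM values scale the counts to a common library size, each total being multiplied by its TMM factor. Per kilobase of exon, the scale on which genes can be compared, the mean level in the 8 WT libraries was 870 CPM for Jun, 535 for Fos, 439 for Junb, 277 for Atf3 and 273 for Jund. Fosb, at 73.4, came next, and Maff (11.9), Fosl2 (6.55) and Batf (4.12) lay far below. Fosl1 had 0 to 5 counts in each library, where 3 counts, the limit that a count of 0 allows, are 0.168 to 0.346 CPM; it was not tested, which left 9 of the 10 genes.

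Of these 9 genes, 7 were lower in APP-NL-G-F than in WT microglia over both sexes and none was higher: Fos, Fosb, Jun, Junb, Jund, Atf3 and Maff. Fos and Fosb had the largest differences, and Fosl2 and Batf did not pass the test. A gene counted as called where edgeR's quasi-likelihood test, with sex as a term, gave an FDR (Benjamini-Hochberg) under 0.1 and a log2 fold change beyond 0.5 in either direction. By that rule 4.3% of all 18227 genes tested were called lower. The 9 genes had a median log2 fold change of -0.85, and that of all tested genes was -0.00. In bulk RNA, fewer cells that transcribe a gene and less of its RNA per cell cannot be told apart.

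**Figure D1:**
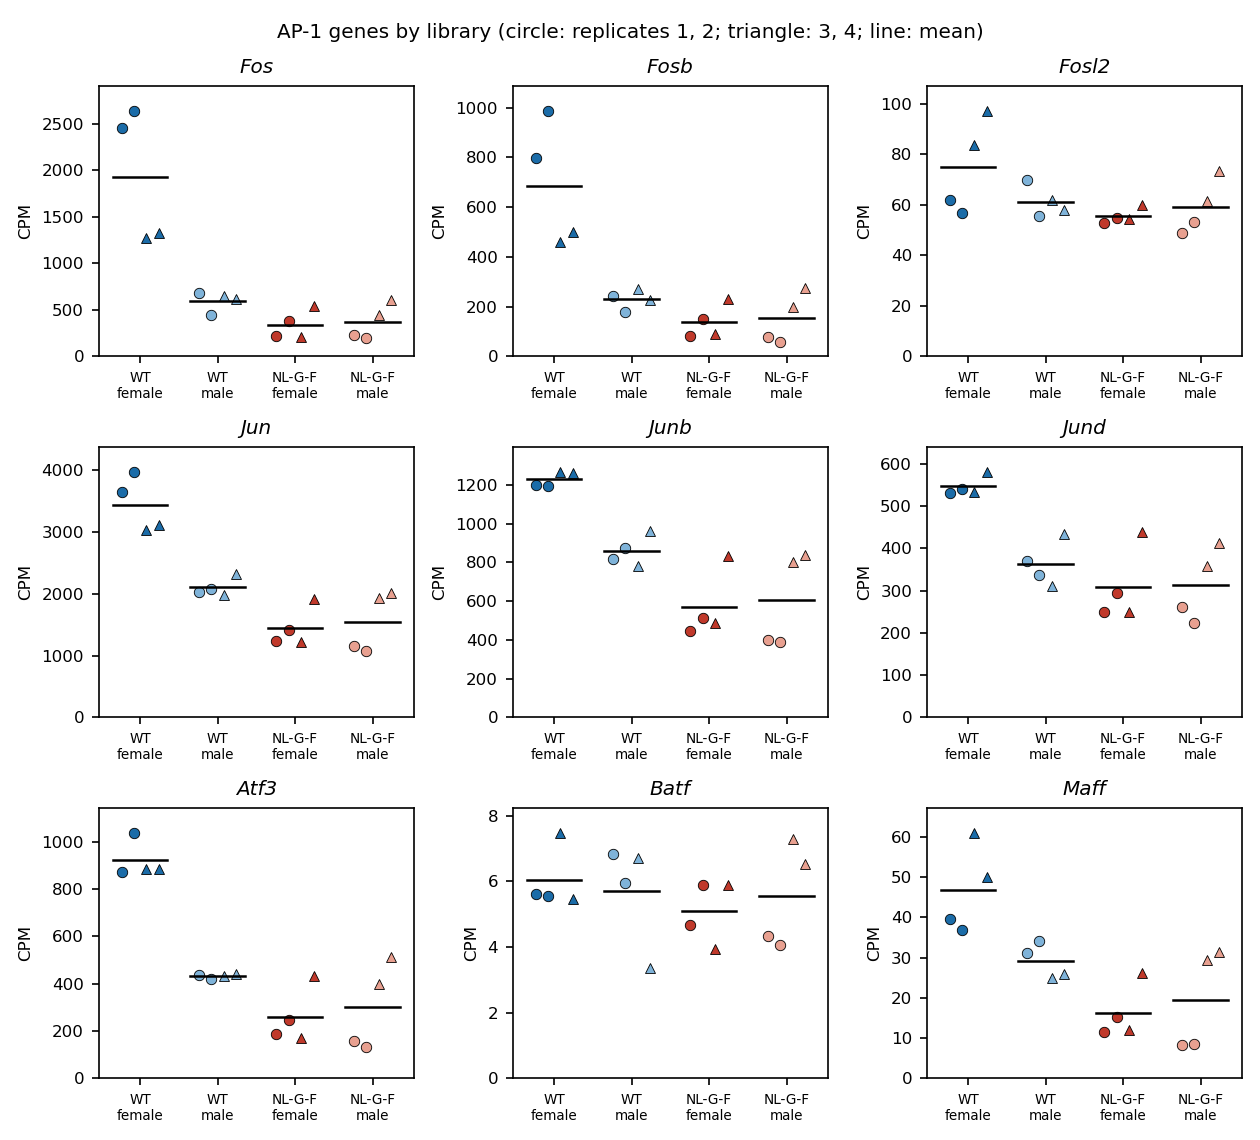
CPM (vertical axis, from 0) of 9 AP-1 genes in each library, by group; circles are replicates 1 and 2, triangles replicates 3 and 4, and lines are means of 4 libraries. WT females lie above the other groups in Fos, Fosb, Jun, Junb, Jund, Atf3 and Maff, and in the same genes APP-NL-G-F female replicate 4 and male replicates 3 and 4 lie above the other APP-NL-G-F libraries.

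Fos (ENSMUSG00000021250, chr12:85520658-85524047) encodes the founding partner of Jun in AP-1. In WT females its level was 2453, 2645, 1275 and 1328 CPM in replicates 1 to 4, and in WT males 680, 449, 646 and 617 CPM. In APP-NL-G-F females it was 223, 382, 210 and 537 CPM, and in APP-NL-G-F males 226, 194, 443 and 605 CPM. All WT females lay above every other library, with replicates 1 and 2 highest, whereas the other 3 groups overlapped. The log2 fold change over both sexes was -1.61 (SE 0.339, FDR 0.006, edgeR).

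Fosb, the Fos paralogue at chr7:19036621-19043976, followed Fos at a lower level. Its group means were 687 ± 252 CPM in WT females, 230 ± 39.6 in WT males, 138 ± 68.2 in APP-NL-G-F females and 153 ± 102 in APP-NL-G-F males (SD, n = 4 each). The lowest WT female library, at 459 CPM, lay above the highest APP-NL-G-F library, at 274 CPM, while WT males overlapped both APP-NL-G-F groups. The log2 fold change was -1.46 (SE 0.362, FDR 0.0163). Fosl2, a Fos-related partner that is less dependent on acute stimuli, averaged 68.1 ± 15.03 CPM over the 8 WT and 57.3 ± 7.64 CPM over the 8 APP-NL-G-F libraries (SD), with overlapping ranges and a log2 fold change of -0.24 (SE 0.111, FDR 0.187).

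Jun (ENSMUSG00000052684, chr4:94937271-94940459), the core AP-1 subunit and a substrate of the JNK kinases, had the highest level of the members. It was at 3644, 3982, 3037 and 3122 CPM in WT females and at 2024, 2085, 1985 and 2325 CPM in WT males. In APP-NL-G-F libraries it was at 1244, 1412, 1220 and 1924 CPM in females and at 1150, 1082, 1939 and 2019 CPM in males. WT females stood above all others, and WT males lay above APP-NL-G-F females without overlap but overlapped APP-NL-G-F males in replicate 4. The log2 fold change was -0.85 (SE 0.159, FDR 0.00274). The lncRNA Junos overlaps Jun on the opposite strand, and the strand setting of the counts is not given in the sources used here.

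Junb and Jund, the Jun paralogues that can restrain or replace Jun, had smaller differences. Junb was at 1202, 1196, 1270 and 1263 CPM in WT females, 818, 874, 783 and 962 CPM in WT males, 448, 511, 486 and 834 CPM in APP-NL-G-F females and 401, 387, 802 and 841 CPM in APP-NL-G-F males. The WT females were the tightest group of this gene (coefficient of variation 3.15%) and APP-NL-G-F males the widest (40.7%), since replicates 3 and 4 of those males reached WT male levels. Its log2 fold change was -0.81 (SE 0.171, FDR 0.00632). Junb overlaps Prdx2 on the opposite strand.

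Jund fell from 455 ± 106 CPM (SD, n = 8) in WT to 311 ± 81.8 CPM (SD, n = 8) in APP-NL-G-F libraries. Its log2 fold change of -0.52 (SE 0.145, FDR 0.0312) was close to the fold threshold. The call was lost in 13 of 30 other settings, through the fold or the FDR threshold, with the log2 fold change between -0.77 and -0.32.

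Atf3, a stress-induced factor that pairs with Jun and can repress its own targets, lies at chr1:190902493-190950241. It was at 875, 1039, 885 and 887 CPM in WT females and between 420 and 441 CPM in the 4 WT males. In APP-NL-G-F females it was at 186, 246, 171 and 434 CPM and in APP-NL-G-F males at 156, 133, 398 and 512 CPM. The WT groups were narrow and did not overlap each other, whereas the APP-NL-G-F libraries reached into and past the WT male range. The log2 fold change was -1.18 (SE 0.286, FDR 0.0139).

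Maff, a small MAF protein with no activation domain of its own, was at 46.9 ± 11.04 CPM in WT females, 29.05 ± 4.40 in WT males, 16.3 ± 6.77 in APP-NL-G-F females and 19.35 ± 12.7 in APP-NL-G-F males (SD, n = 4 each). APP-NL-G-F male replicates 1 and 2 were lowest, at 8.32 and 8.42 CPM, and replicates 3 and 4 reached 29.3 and 31.3 CPM, inside the WT male range of 24.8 to 34.2 CPM. The log2 fold change was -1.06 (SE 0.271, FDR 0.0193). Batf, best known in lymphocytes, was at 3.35 to 7.49 CPM over all libraries, with a log2 fold change of -0.14 (SE 0.16, FDR 0.65). It had few counts, 33 to 106 per library.

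**Figure D2:**
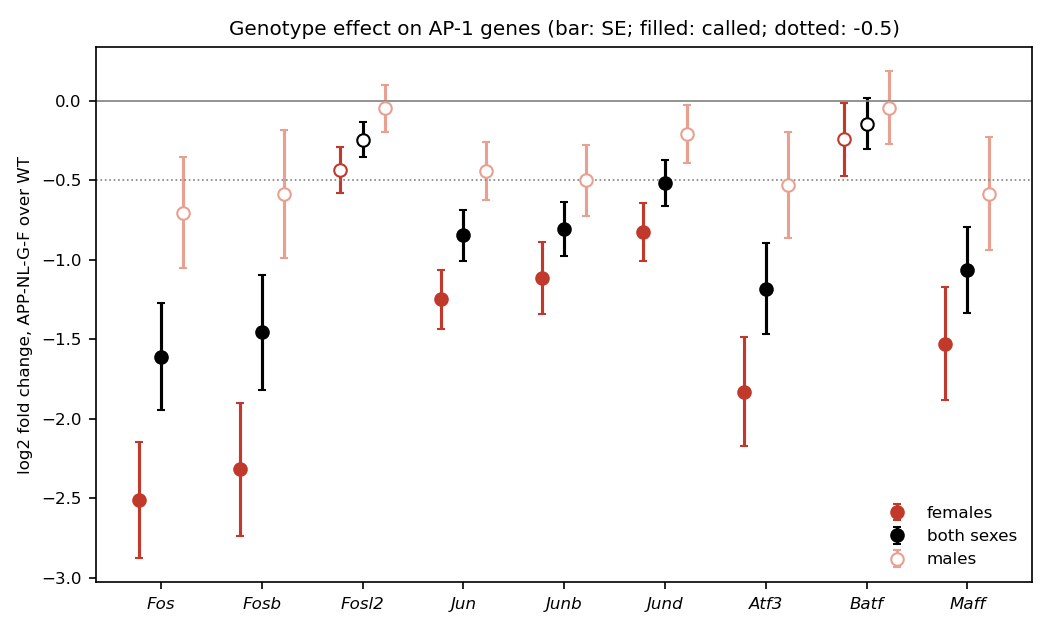
Log2 fold change of APP-NL-G-F over WT (vertical axis) for 9 AP-1 genes in females, over both sexes and in males; bars are SE, filled points passed FDR and fold thresholds, and the dotted line marks -0.5. All values are below 0, each gene's female value is the lowest, and no male value is filled.

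Within females the same 7 genes were called lower, against 4.33% of all tested genes. The 790 genes behind that share became 483 without WT female replicate 1 and 889 without WT female replicate 4. The 1304 genes called in either direction became 594 and 2110 in these fits. Fos had a log2 fold change of -2.51 (SE 0.366, FDR 0.000917), Fosb of -2.32 (SE 0.418, FDR 0.003) and Atf3 of -1.83 (SE 0.343, FDR 0.00388). Maff was at -1.53, Jun at -1.25, Junb at -1.11 and Jund at -0.83, with FDR between 0.000917 and 0.0154. Fosl2 passed the FDR (0.0918) but not the fold threshold, at -0.44. In these 7 genes every APP-NL-G-F female library lay below every WT female library, as it did for 7.42% of all tested genes.

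Within males all 9 genes had values below 0, with a median of -0.50, but none was called by edgeR, DESeq2 or limma voom, against 0.165% of all tested genes called lower by edgeR. The 30 genes behind that share became 1 without APP-NL-G-F male replicate 1 or 2, 193 without replicate 4 and 260 without replicate 3, while none of the 9 was called with any one library left out. Jun (-0.44, SE 0.182, FDR 0.351) and Junb (-0.50, SE 0.223, FDR 0.398) had an unadjusted p below 0.05, and Fos was at -0.70 (SE 0.349, FDR 0.454). With 1 library left out, 0 of the 9 had such a p without APP-NL-G-F male replicate 1 or 2 or WT male replicate 4, and 6 had one without APP-NL-G-F male replicate 4, where Fos was at -1.07. The value of Fos closest to 0, -0.49, came without APP-NL-G-F male replicate 2. No gene separated the male groups, where 3.19% of all tested genes had every APP-NL-G-F male below every WT male. APP-NL-G-F male replicates 1 and 2 lay below all WT males in Fos, Fosb, Fosl2, Jun, Junb, Jund, Atf3 and Maff, whereas replicate 4 lay inside or above the WT male range in each of them.

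The difference of the genotype effect between the sexes was tested itself. It was called for none of the 9 genes by edgeR, DESeq2 or limma voom, and for 0.0274% of all tested genes by edgeR. The 5 genes behind that share became 1 without WT male replicate 2 and 43 without WT female replicate 4. All 9 differences had the sign of a larger decrease in females, and 5 had an unadjusted p below 0.05. Fos had the smallest p (0.00184, FDR 0.319), at -1.81 (SE 0.495), followed by Jun at -0.81 (SE 0.258, FDR 0.502) and Fosb at -1.73 (SE 0.571, FDR 0.537). Without the count filter 7 of the 9 differences were called, against 1.19% of all tested genes. That of Fos was then -1.81 with an SE of 0.111, where the replicate block gave an SE of 0.507. So small an SE does not reflect the spread of Fos between libraries of a group, and these calls are not taken as a result.

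Sex itself was compared within each genotype; these contrasts share their groups with those above. In WT, Fos (log2 fold change of females over males 1.69, SE 0.355, FDR 0.0431), Jun (0.71, SE 0.183, FDR 0.0976) and Fosb (1.58, SE 0.407, FDR 0.0979) were called higher in females, against 0.839% of all tested genes. The 171 genes called in either direction became 13 without WT male replicate 2 and 342 without WT female replicate 4. Fos, Fosb, Jun, Junb, Jund, Atf3 and Maff separated the WT sexes completely, which 4.21% of all tested genes did in that direction. The calls were not stable. Leaving out any one WT male library, or WT female replicate 1 or 2, left none of Fos, Fosb and Jun called in edgeR. In these fits 5 to 7 of the 9 genes had an unadjusted p below 0.05. The log2 fold change of Fos stayed between 1.12 and 1.83 over all settings. In APP-NL-G-F mice none of the 9 genes was called by any of the 3 tools, none had an unadjusted p below 0.05, and the values lay between -0.26 and -0.03; 0.0549% of all tested genes were called in either direction.

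**Figure D3:**
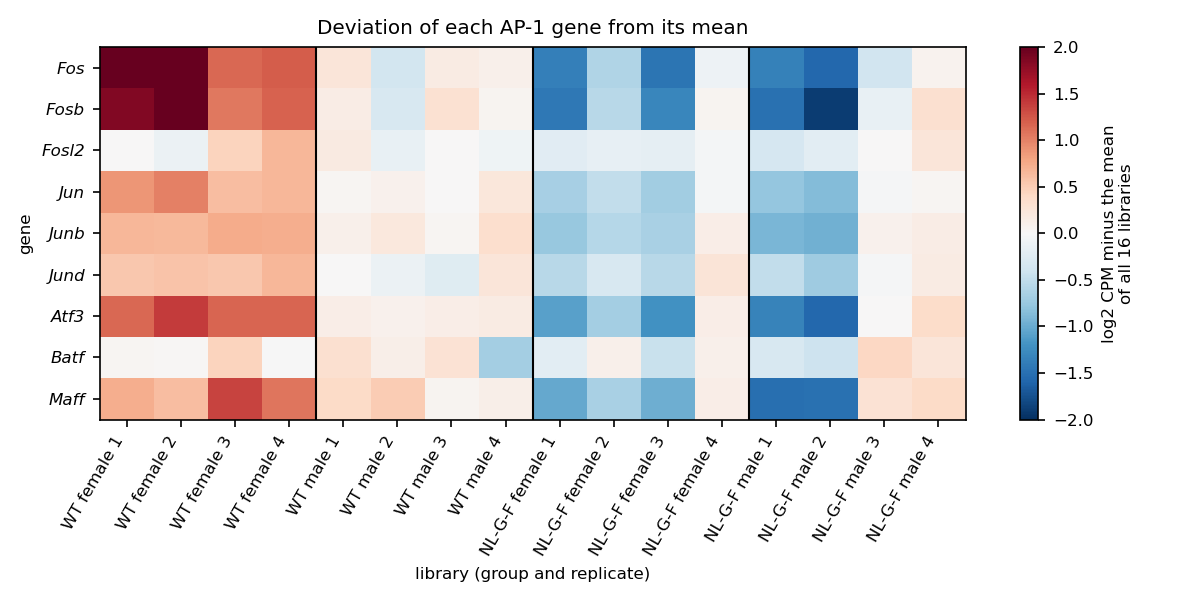
Deviation of log2 CPM from the gene's mean over all libraries (colour, in log2 units) for 9 AP-1 genes (rows) in 16 libraries (columns), by group. WT female columns are red in Fos, Fosb, Jun, Junb, Jund, Atf3 and Maff; APP-NL-G-F female replicates 1 to 3 and male replicates 1 and 2 are blue in the same rows, and APP-NL-G-F female replicate 4 and male replicates 3 and 4 are near white.

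The spread within the APP-NL-G-F groups followed the same libraries from gene to gene. Female replicate 4 and male replicates 3 and 4 were the highest 3 APP-NL-G-F libraries in Fos, Fosb, Jun, Junb, Jund, Atf3 and Maff. In Fos they held 443 to 605 CPM, where the other 5 held 194 to 382 CPM, and in Junb 802 to 841 CPM against 387 to 511 CPM. These values are given as a description of single libraries and were not tested.

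Replicates 1 and 2 of each group carry library numbers 1 to 8 and replicates 3 and 4 numbers 9 to 16; the labels do not call this a batch. In replicates 1 and 2 alone, Fos had a log2 fold change of -2.27 (FDR 0.000735) and Junb of -1.22 (FDR 2.72e-06), and the same 7 genes were called, against 5.4% of all tested genes called lower. In replicates 3 and 4 alone none was called by edgeR, where 0.312% of all tested genes were called lower, and 4 of the 9 had an unadjusted p below 0.05. Fos was then at -1.03 (SE 0.335, FDR 0.36), Jun at -0.54 (SE 0.177, FDR 0.364) and Atf3 at -0.74 (SE 0.338, FDR 0.586), and 8 of 9 values were below 0, Batf being at 0.04. The mean of Fos in WT females was 2549 CPM in replicates 1 and 2 and 1302 CPM in replicates 3 and 4, and in APP-NL-G-F males 210 and 524 CPM. The difference between the 2 sets was called for 0 of all 18227 genes in edgeR, and so for none of the 9 (smallest FDR among them 0.586), with an unadjusted p below 0.05 for 6, Fos, Fosb, Jun, Junb, Atf3 and Maff.

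Members varied together between libraries of one group. After subtracting each group's mean from log2 CPM, Fos correlated with Fosb (Pearson r 0.979, adjusted p 8e-05, and Spearman rho 0.962, adjusted p 0.00224, over 16 libraries; permutation). The unadjusted p of that r, 1e-05, is the smallest that 100000 resamples within groups can give. For Jun r was 0.905 (adjusted p 0.00301) and rho 0.926 (adjusted p 0.00464), and for Atf3 r was 0.861 (adjusted p 0.00056) and rho 0.862 (adjusted p 0.0164). Jund had an r of 0.762 (adjusted p 0.0149) and a rho of 0.75 (adjusted p 0.0248). All p-values come from permutation tests, two-sided, adjusted over the 8 genes compared.

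Junb (r 0.743, adjusted p 0.0498, permutation) did not pass by rank (rho 0.647, adjusted p 0.109). Maff (r 0.616), Batf (r 0.464) and Fosl2 (r 0.118) did not pass, with adjusted permutation p between 0.129 and 0.704. Without the 2 libraries farthest from the median of Fos, APP-NL-G-F male replicates 2 and 4, r was 0.977 for Fosb, 0.86 for Jun, 0.79 for Atf3, 0.642 for Jund and 0.61 for Junb. Within replicates 1 and 2 the values were 0.957, 0.607, 0.786, 0.885 and 0.455 in the same order, and within replicates 3 and 4 they were 0.991, 0.904, 0.996, 0.837 and 0.891. In each of these sets a group has 2 libraries, whose deviations from their mean mirror each other. These r thus rest on 1 independent value per group and are a description only. The libraries of a point share all their reads, so that anything that moves a whole library enters each r.

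By the same measure, over 9278 genes outside the lists with a mean of at least 3 log2 CPM, the patterns most like Fos were 2810013P06Rik (r 0.966), Gm34455 (0.966), Btg1 (0.933), Junos (0.93) and 4933421O10Rik (0.928). Those most like Jun were Adamts1 (r 0.97), Socs3 (0.967), 4833438C02Rik (0.958), Ccnl1 (0.954) and Btg1 (0.953). Btg1 is an antiproliferative factor, Socs3 an inhibitor of cytokine signalling, Adamts1 a secreted protease and Ccnl1 a cyclin linked to splicing. All of these genes were called lower in APP-NL-G-F libraries over both sexes, as were 4.3% of all tested genes. They were picked for their likeness to Fos or Jun in these same libraries, so their direction is not an independent result. Gm34455 had a log2 fold change of -2.01 (SE 0.338, FDR 0.00121), and Socs3 had one of -1.09 (SE 0.239, FDR 0.00762).

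Other immediate early genes were described as a list of 17, all tested. Over both sexes 12 were called lower and 2 higher, against 4.3% and 4.33% of all tested genes, with a median log2 fold change of -0.80. Btg2, an antiproliferative gene (-1.44, FDR 0.000723), Ier2 (-1.29, FDR 0.000744), Egr1, a zinc finger factor induced through SRF (-1.29, FDR 0.00186), Zfp36, which destabilises cytokine mRNAs (-1.25, FDR 0.0021), and Ier5 (-0.69, FDR 0.0089) were among the lower genes. The 2 higher ones were Arc (0.81, FDR 0.000897) and Npas4 (1.04, FDR 0.0156; named after its value was seen), both known from active neurons. Nr4a1, Nr4a2 and Nr4a3, nuclear receptors of the same early wave, had values of -0.47, 0.02 and 0.12 and did not pass. Within females 12 of the 17 were called lower and 2 higher, against 4.33% and 2.82% of all tested genes. Within males 1 of the 17, Arc (0.90, FDR 0.0775), was called, against 0.0878% of all tested genes called higher. In males 13 of the 17 values were below 0, with a median of -0.30, and 8 had an unadjusted p below 0.05 in edgeR.

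Neuron markers are given beside Arc and Npas4. The 12 neuron markers, of which Map2 was the most abundant (192 CPM) and none was at 0 in all libraries, summed to 450, 472, 478 and 491 CPM in WT females and to 510, 400, 535 and 558 CPM in WT males. In APP-NL-G-F libraries they summed to 588, 584, 691 and 582 CPM in females and to 665, 733, 499 and 660 CPM in males. Over both sexes 9 of 12 were above 0, with a median of 0.25, and 0 were called by edgeR, since the 5 that passed the FDR, Gad2, Snap25, Syt1, Gad1 and Map2 (FDR 0.00417 to 0.0228), were under the fold threshold at 0.37 to 0.49. Of all tested genes 4.33% were called higher over both sexes. Within females 2 of 12 were called higher, Gad1 (0.54, FDR 0.0922) and Syt1 (0.59, FDR 0.00876), against 2.82% of all tested genes. Within males 0 were called, against 0.0878% of all tested genes called higher, and 6 had an unadjusted p below 0.05 in edgeR. The part of these markers in any result here was not tested.

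Known AP-1 targets were described as a list of 22, of which 21 were tested; 7 were called lower and none higher, against the same 4.3% and 4.33%, with a median of -0.23. Among them were Dusp1, a phosphatase that switches off MAP kinases (-1.24, FDR 0.00564), the cytokine genes Ccl3 (-0.98, FDR 0.0093), Tnf (-1.17, FDR 0.0274), Ccl4 (-0.77, FDR 0.0299) and Ccl2 (-0.69, FDR 0.0646), and Plaur, the urokinase receptor (-0.57, FDR 0.0669; named after its value was seen). Ccnd1 (0.13), Plau (-0.09) and Hmox1 (0.09) had values near 0 and were not called. Within females 8 of the 21 were called lower, against 4.33% of all tested genes. Within males none was called by edgeR, against 0.165% of all tested genes called lower, and 3 had an unadjusted p below 0.05.

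Of 14 other AP-1 and partner zipper genes, 13 were tested and 1 was called, Mafk, a small MAF like Maff, at -0.55 (SE 0.118, FDR 0.00654). Of all tested genes 8.64% were called in either direction and 4.3% lower. The 13 genes had a median of -0.06, and 4 had an unadjusted p below 0.05 in edgeR. Maf and Bach1, among the most abundant of those not called, had values of 0.01 and 0.04. Mafg, also a small MAF, passed the FDR but not the fold threshold, at -0.24 (FDR 0.00255, named after its value was seen). Of the 13 values 5 were above 0 and 8 below. None of 23 upstream kinases and factors (MAP kinases, SRF, ELK, CREB and MEF2 genes) was called by edgeR, with a median of 0.03 and an unadjusted p below 0.05 for 6. Among them Mef2a was at -0.00 (SE 0.0502), Mef2c at -0.01 (SE 0.0391) and Rps6ka1 at -0.02 (SE 0.0491). Kinase activity itself was not measured.

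Heat shock genes encode chaperones, many of them induced by protein damage. Of 10, 3 rose over both sexes, where 4.33% of all tested genes were called higher: Hspa1a at 1.70 (SE 0.495, FDR 0.0372), Hspa1b at 1.93 (SE 0.659, FDR 0.0735) and Hsph1 at 0.79 (SE 0.213, FDR 0.0256). Hspa8 (0.03), Hsp90aa1 (0.22) and Dnajb1 (0.19) were not called, and the median was 0.20. In females the same 3 were called, against 2.82% of all tested genes called higher, and the median was 0.36. That share also moved with single libraries left out, as given above for the female calls in either direction. In males the median was 0.10, and none of the 10 was called by edgeR or had an unadjusted p below 0.05. Hspa1a and Hspa1b are near-identical copies, so that reads may have been split between them.

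**Figure D4:**
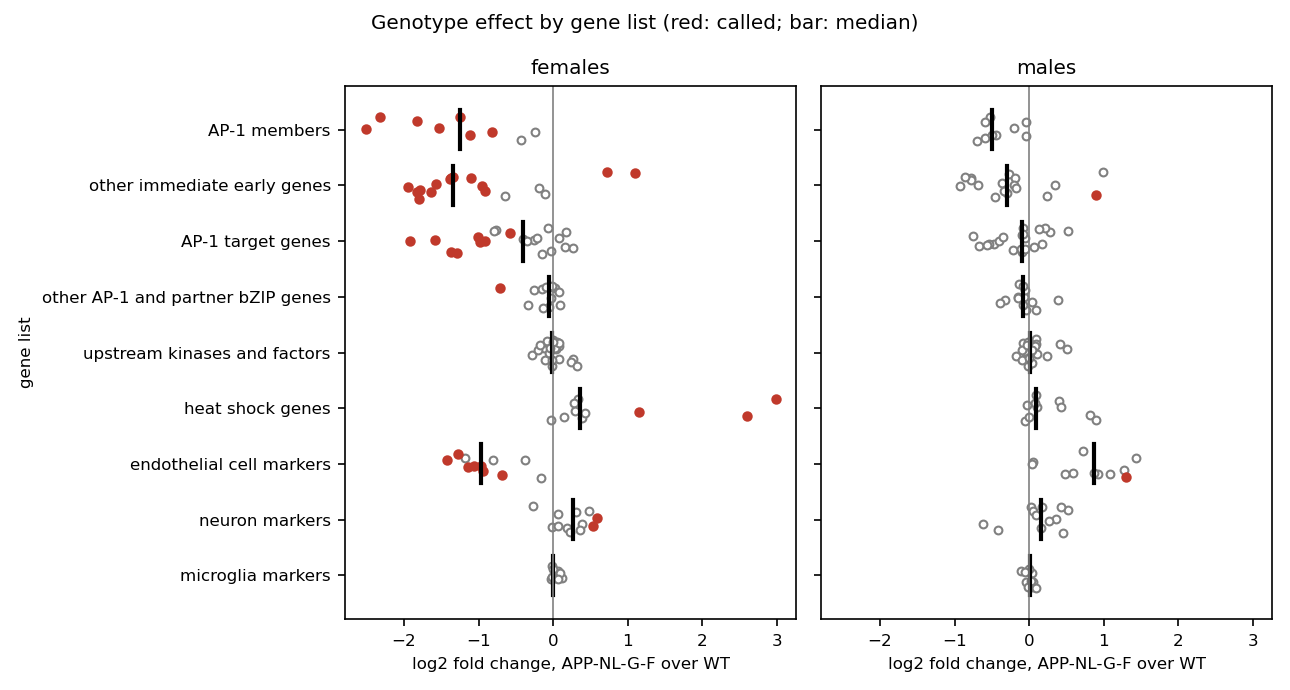
Log2 fold change of APP-NL-G-F over WT (horizontal axis, the same in both panels) for each tested gene of 9 lists, in females and males; red points passed the FDR and fold thresholds and bars are list medians. AP-1 and other immediate early genes lie mostly below 0 in both panels, with medians of -1.25 and -1.34 in females and -0.50 and -0.30 in males, while endothelial markers lie below 0 in females and above 0 in males.

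Microglia markers summed to between 19970 and 23630 CPM in every library, led by Csf1r (5657 CPM), and none of the 10 was called in either sex by edgeR or had an unadjusted p below 0.05. Endothelial markers were lower by far, led by Pecam1 (32.5 CPM) and with none of the 11 at 0 in all libraries. They summed to 186, 236, 138 and 108 CPM in WT females and to 79.9, 71.5, 86.0 and 80.6 CPM in WT males. In APP-NL-G-F libraries the sums were 105, 96.7, 116 and 92.2 CPM in females and 93.0, 130, 92.1 and 121 CPM in males. WT female replicates 1 and 2, the libraries with the most Fos, were highest.

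Of the 11 endothelial markers, beside the AP-1 genes, 7 were called lower in females with the knock-in, against 4.33% of all tested genes, and 8 were called higher in WT females than WT males, against 0.839%. In males, where all AP-1 values were below 0, all 11 were above 0, with a median of 0.86. Of the 11, 1 was called higher in males, against 0.0878% of all tested genes, and 9 had an unadjusted p below 0.05 in edgeR. Pericyte and fibroblast markers summed to 72.8 ± 23.9 CPM in WT females and to 28.3 ± 3.84 CPM in WT males, with 42.6 ± 6.85 and 39.6 ± 6.23 CPM in APP-NL-G-F females and males (SD, n = 4 each; Rgs5 most abundant at 20.6 CPM). Astrocyte markers summed to 879 ± 257 CPM in WT females and to 625 ± 39.8, 626 ± 141 and 657 ± 114 CPM in WT males, APP-NL-G-F females and APP-NL-G-F males (Slc1a2 most abundant at 294 CPM), and 3 of 8 were called lower in APP-NL-G-F females. With WT female replicates 1 and 2 both left out, 6 of the 9 AP-1 genes were called lower over both sexes, against 3.13% of all tested genes, with Fos at -1.22 (SE 0.282, FDR 0.022) and Jun at -0.70 (SE 0.156, FDR 0.0167). In females 7 were called lower, against 1.53% of all tested genes, with Fos at -1.94 (FDR 0.0356). The call of Jund was lost in both comparisons, at -0.47 (FDR 0.118) over both sexes and -0.85 (FDR 0.105) in females, and Fosl2 (-0.70, FDR 0.033) was gained in females. The 2 WT female libraries that remain had endothelial sums of 138 and 108 CPM, still above those of all WT males. The part of these other cells in the AP-1 differences was not tested.

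**Figure D5:**
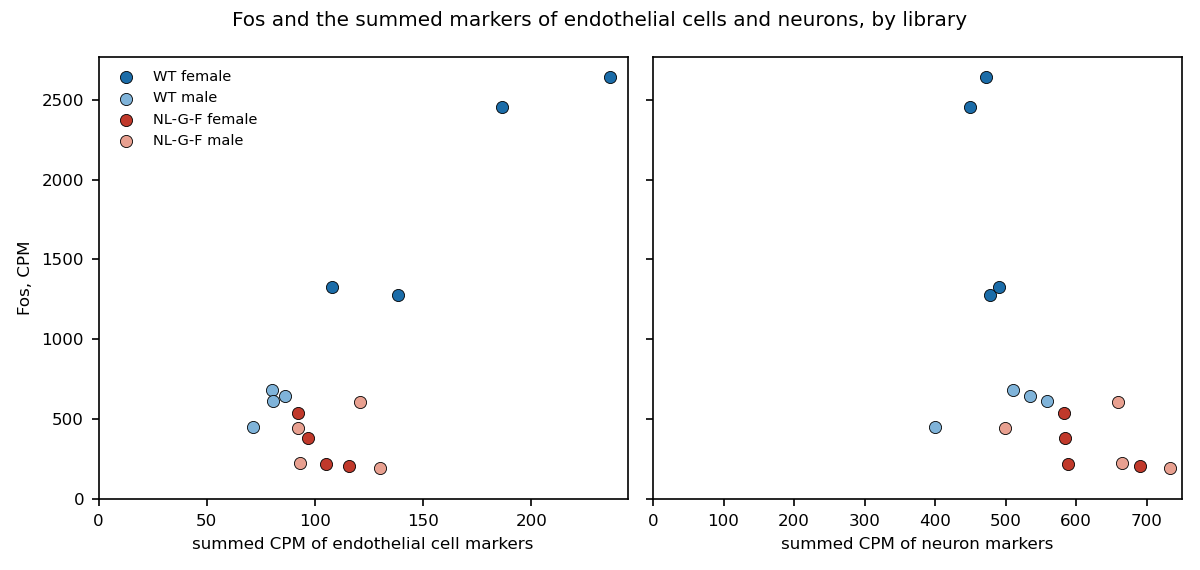
Fos CPM (vertical axis) against the summed CPM of 11 endothelial markers (left) and 12 neuron markers (right), both axes from 0, with 1 point per library coloured by group. WT females hold the highest Fos values and 3 of the 4 highest endothelial sums, and outside WT females Fos stays at or below 680 CPM over endothelial sums of 71.5 to 130 CPM.

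Border macrophage markers (7, led by Mrc1 at 344 CPM), monocyte markers (5, led by Ccr2 at 18.4 CPM) and the 4 tested of 7 neutrophil markers (led by Csf3r at 238 CPM) had no called gene over both sexes in edgeR, with 0, 0 and 1 genes at an unadjusted p below 0.05. Of 7 oligodendrocyte markers, led by Mbp (113 CPM), 1 was called higher over both sexes, Mog, against 4.33% of all tested genes. All 7 were above 0 (median 0.38), and 6 had an unadjusted p below 0.05 in edgeR. In males none of these 7 was called by edgeR, but all had an unadjusted p below 0.05, with a median of 0.60, and their part in the AP-1 values was not tested. The red blood cell markers summed to at most 3.51 CPM and were not tested. Ribosomal RNA genes took 16.6% to 22.9% and mitochondrial genes 15.5% to 21.7% of the counts of a library. The ribosomal RNA genes of the mitochondria count in both shares, so the shares overlap. Mitochondrial genes took 21.7%, 19.7%, 16.7% and 15.7% in WT female replicates 1 to 4, so that the 2 libraries with the most Fos also had the highest mitochondrial shares. WT female replicate 2 had the fewest genes detected, 23650 against 24832 to 26661 in the other libraries. The part of these measures in the AP-1 differences was not tested.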

How the data were processed

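The authors isolated RNA from CD11b-selected microglia, made rRNA-depleted stranded total RNA libraries, used STAR to align the read pairs to GRCm39, extended by human App sequence, under a gencode annotation, and deposited counts per gene, whole numbers without normalization, with 1 column for each of the 16 libraries. The strand setting of the counting is not given in the sources used here, so overlapping antisense genes are uncertain. A reporting form speaks of technical replicates of RNA sequencing, which have no columns of their own here.

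The members, gene lists and alternatives were chosen with earlier results of these data known. The 18227 genes that reached 5 counts in 8 or more libraries were tested with edgeR 4.0.16 in R 4.3.3: TMM factors, glmQLFit and glmQLFTest, genotype plus sex as in the study, and a fit of the 4 groups for contrasts within a sex, their difference, and sex within a genotype. SE is the absolute log2 fold change over the square root of F. FDR is adjusted over all tested genes. Log2 CPM carries a prior count of 2. Counts of 0 and floors of 3 counts cover counting error only. The procedure was tested on simulated counts drawn independently for each gene and library. That test cannot show how calls behave where genes vary together between libraries. No 2 libraries held identical counts.

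Within the lists, called genes were named up to 6 by smallest p and genes not called up to 3 by highest mean CPM; the values of 2 genes are not reported here. Exon lengths and overlaps came from a later gencode release on the same build, which matched 94.8% of the symbols. Alternatives were RLE or no scaling factor, DESeq2 1.42.0, limma 3.58.1 voom, other filters and thresholds, no sex term, a replicate block, a term for the set of library numbers (1 to 8 or 9 to 16), each set alone and leaving out each library. The test between these sets and the omission of WT female replicates 1 and 2 together were added after seeing the data. Same-numbered libraries of different groups had deviations correlated above 0.1 in 8 of 24 pairs. The median r was 0.034 for these pairs and -0.030 for the other pairs. Of 16 libraries, 8 correlated best with a library of their own number. The numbers were not taken to pair libraries in the main fit, and the replicate block is given as an alternative.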

Additional observations from a re-analysis of the deposited data

Results flagged for a closer look

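In groups of 4 libraries, the highest or lowest library was set against the others by its gap to the nearest one, divided by the range of the group. The ratios were taken on log2 CPM for single genes, on summed CPM for marker lists and on total counts for libraries. Of 80 groups examined (AP-1 genes, summed marker lists and library totals), 4 passed Dixon's 95% critical value. Chance alone flags about 1 in 20, or 4 of them. Atf3 in WT females had a ratio of 0.916, with replicate 2 at 1039 CPM above 875 to 887 CPM in the others. Batf in WT females had a ratio of 0.908, with replicate 3 at 7.49 CPM against 5.46 to 5.62 CPM. The summed neuron markers of APP-NL-G-F females had a ratio of 0.946, with replicate 3 at 691 CPM and the others at 582 to 588 CPM. The red blood cell markers of WT males had a ratio of 0.833, with replicate 1 at 3.51 CPM.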

How the results depend on the processing

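The count of 7 AP-1 genes lower over both sexes was 6 or 7 in every other setting except replicates 3 and 4 alone, with 0; with 1 library left out at a time it ranged from 6 to 7. The replicate block gave 7 (Fos -1.68) and left the other counts as they were, but for sex in WT it ended the call of Fosb (1.62, FDR 0.117) and added Jund (0.60, FDR 0.0704). In females the left-out fits gave 7 to 8. Without a count filter low-count genes enter the test. Then 4 genes were called in males, 7 in the difference between the sexes and 7 for sex in WT. Of all 39394 tested genes 2.23%, 1.19% and 2.02% were called in either direction. The SE of the difference of Fos was then 0.111 in place of 0.495. So small an SE does not reflect the spread between libraries, and the calls without a filter are not taken as results. For sex in WT, RLE normalization, no TMM factor, a filter of at least 10 counts and an FDR below 0.05 each gave 1 in place of 3, leaving out single libraries gave 0 to 3, and leaving out WT female replicates 1 and 2 together gave 0; the cause was not tested. Left-out fits gave 0 in males, in the difference between the sexes and for sex in APP-NL-G-F. The median correlation of Fos with the other 8 genes was 0.752, and 0.697 and 0.897 within replicates 1 and 2 and within replicates 3 and 4. The values within these sets rest on 1 independent value per group. No called result changed sign. Fosl1 was not tested because of its few counts.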
